A study of Mus musculus with 12 samples.

Results

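A set of 10 genes of prostaglandin and leukotriene signalling were followed across 12 mouse arrays: Pla2g4a, Ptgs1, Ptgs2, Ptges, Ptgis, Ptgds, Ptger4, Ptgfr, Alox5ap and Ltc4s. The 10 genes were chosen by name for their place in the pathway, with earlier results of these data known, among 20670 genes on the array. They are read by 20 of its 45101 probe sets, a probe set being the group of short probes that reports a transcript. The RNA came from 3T3-L1 preadipocytes, fibroblast-like cells that can become fat cells, and from 10T1/2 cells, a mesenchymal stem cell line. Cells were seeded in medium with serum and given Stealth siRNA on day -5 and again on day 0, with 1 siRNA per target: a control (si-Ctr) or an siRNA to Setdb1, Mbd1 or Mcaf1. Setdb1 is a histone H3K9 methyltransferase, Mbd1 binds methylated DNA, and Mcaf1, now called Atf7ip, binds both. Cells of the 0 hr groups were collected before differentiation medium. The others had that medium with 0.25 µM dexamethasone, a synthetic glucocorticoid, for 36 hr (3T3-L1) or 48 hr (10T1/2).

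The 12 arrays form 10 groups, and 8 of these groups hold 1 array. Control and Setdb1 siRNA arrays exist in both lines and at both times, and in 3T3-L1 at 0 hr each has 2 arrays, from experiments A and B. The Mbd1 and Mcaf1 siRNAs have 1 array each, both of 3T3-L1 in experiment B. Those 2 arrays are titled 0 hr but described as 36 hr of dexamethasone, and they are treated as 0 hr here. On them the summed signals of 8 known glucocorticoid-induced genes were 2561.5 and 2532.5. These lay within the 1614.2 to 3369.9 of the other 0 hr arrays. They were below the 9438.8 and 11751.8 of 3T3-L1 at 36 hr. Apart from the experiment letters nothing in the labels shows separate cultures, so the spread behind each p-value is that between arrays and may be technical in part.

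As background, a phospholipase A2 frees arachidonic acid from membranes, and the cyclooxygenases turn it into prostaglandin H2. Terminal synthases convert prostaglandin H2 into prostaglandin E2, prostacyclin or prostaglandin D2, which act on receptors at the cell surface. In a parallel branch, 5-lipoxygenase with its helper protein makes leukotriene A4, which leukotriene C4 synthase joins to glutathione. In fat precursor cells, prostaglandins are known both to hold back and to promote differentiation, depending on the product and the receptor.

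Some facts of the whole series bear on every value. The median signal was 11.2 to 12.2 on 8 arrays and 14.9 to 18.1 on the 4 arrays of experiment B, which stand apart. Setdb1 itself, in its brightest probe set, had a signal of 120.5 to 179.8 on the control arrays and 143.0 to 209.0 on the arrays labelled si-Setdb1, higher in 3 of the 5 pairs and lower in 2. Of its 2 dimmer probe sets, one was lower in 5 of 5 pairs, for example 24.4 against 9.9 in experiment B, and the other was higher in 5 of 5, there 11.7 against 22. The Setdb1 probe sets thus disagreed. Atf7ip had a signal of 154.5 on the array labelled si-Mcaf1 and 159.6 on its control, and it was 358.9 to 502.6 on the arrays labelled si-Setdb1 against 105.9 to 187.3 on their controls. Mbd1 was 144.0 on the si-Mbd1 array and 306.2 on its control. Because these checks do not bear out 2 of the labels, the arrays are called "labelled si-Setdb1" and "labelled si-Mcaf1", and every direction below rests on the labels. Of 12 fibroblast and preadipocyte markers, 11 passed the filter on low values, with summed signals of 39676 to 55412 over the arrays. Cd34 did not pass, at 0.7 to 9.8. The sum does not show differences of single markers between the lines. Dlk1 was at 25.5 to 98.4 in 10T1/2 and 2725.2 to 7602.2 in 3T3-L1, and Thy1 at 126.9 to 256.6 and 532.9 to 771.9. At 0 hr, limma called 2 of the 11 lower in 10T1/2 and 0 higher, beside 8.56% and 9.13% of all genes tested. Of 10 macrophage markers 5 passed, among them Cd14 at 46.8 to 101.9, Csf1r at 8.6 to 56.8 and Lyz2 at 6.7 to 66.1. All 10 summed to 136.6 to 272.8, and Ptprc, at 1.5 to 11, did not pass. Of 11 mast cell and granulocyte markers 1 passed, S100a8 at 0.8 to 236.5, and Kit, at 1.2 to 11.4, did not.

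Promoter sequences are shown for Ptgs2, Ltc4s and Ptger4, the 3 genes on which the siRNA and dexamethasone comparisons turn most. RefSeq promoter windows of build GRCm38.p6, with 250 bases before and 50 bases after the start, were found for 8 of the 10 genes, in 9 windows. Each is written 5′ to 3′ on the strand of the gene, in lower case, with matches to the searched motifs in capitals. They lie at chr1:150099781-150100080 on the + strand (Ptgs2), chr11:50238483-50238782 on the - strand (Ltc4s) and chr15:5244138-5244437 on the - strand (Ptger4).
Ptgs2: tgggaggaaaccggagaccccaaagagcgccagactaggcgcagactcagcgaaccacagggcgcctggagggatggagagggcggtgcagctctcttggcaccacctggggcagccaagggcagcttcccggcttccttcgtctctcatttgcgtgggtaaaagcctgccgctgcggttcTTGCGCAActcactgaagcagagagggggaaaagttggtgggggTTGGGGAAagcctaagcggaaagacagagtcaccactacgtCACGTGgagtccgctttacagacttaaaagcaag
Ltc4s: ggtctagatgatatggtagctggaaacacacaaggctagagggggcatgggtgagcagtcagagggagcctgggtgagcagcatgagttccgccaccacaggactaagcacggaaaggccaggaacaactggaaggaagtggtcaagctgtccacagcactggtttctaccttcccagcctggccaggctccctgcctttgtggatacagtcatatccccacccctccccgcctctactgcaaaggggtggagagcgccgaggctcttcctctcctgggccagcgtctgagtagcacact
Ptger4: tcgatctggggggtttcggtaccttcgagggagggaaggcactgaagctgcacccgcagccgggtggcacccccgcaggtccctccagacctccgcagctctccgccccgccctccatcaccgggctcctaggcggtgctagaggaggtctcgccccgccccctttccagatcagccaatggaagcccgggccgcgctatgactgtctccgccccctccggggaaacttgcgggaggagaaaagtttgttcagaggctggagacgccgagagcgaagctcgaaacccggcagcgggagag
In all, 8 motifs were searched on both strands, and the share of all 32851 promoters that hold each is given beside it. The core promoter box TATAAA was in 13.6% of them, the cyclic AMP response element TGACGTCA in 1.79% and the E-box CACGTG in 7.15%. The C/EBP palindrome TTGCGCAA was in 0.183% and the looser C/EBP form TTNNGNAA in 40.7%. The longer NF-kB site, glucocorticoid response element and PPAR response element were in 0.411%, 0.0091% and 0.0396%. The Ptgs2 window held TTGCGCAA beginning 69 bases before the start, a match that the looser C/EBP form also covers. It held a second looser match, TTGGGGAA, 25 bases before the start, and CACGTG at bases 267 to 272 of the window. The windows of Ltc4s and Ptger4 held none of the 8 motifs, which says only that these letters are not in those 300 bases. Their G and C content was 58.7% and 67.0%, beside 59.3% for Ptgs2 and a median of 52.7% over all promoters. In that assembly Pla2g4a and Ptgs2 are neighbouring protein-coding genes on chromosome 1, and Ptgs1, Ptges, Ptgis and Ptgds all lie on chromosome 2.

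The signals of the 10 genes differed most between the 2 cell lines. Signals are the deposited linear intensities, and a level of 1 probe set cannot be set against that of another. Tests used limma on quantile-normalised log2(signal + 0.8), with Benjamini-Hochberg adjustment over the 12402 genes whose mean was above a signal of about 7.67. All 10 genes passed that filter, read from the brightest probe set of each. At 0 hr, 7 of the 10 genes differed between 10T1/2 and 3T3-L1, beside 17.7% of all genes tested. Of these, 6 were lower in 10T1/2 (8.56% of all genes) and 1 was higher (9.13%). The signals of the lines did not overlap for any of the 10 genes, beside 47.1% of all genes tested. Of the 10, 3 were higher in 10T1/2 on every array (23.3% of all genes) and 7 were lower (23.8%). The median log2 difference was -1.63 over the 10 genes and 0.04 over all genes.

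**Figure D1:**
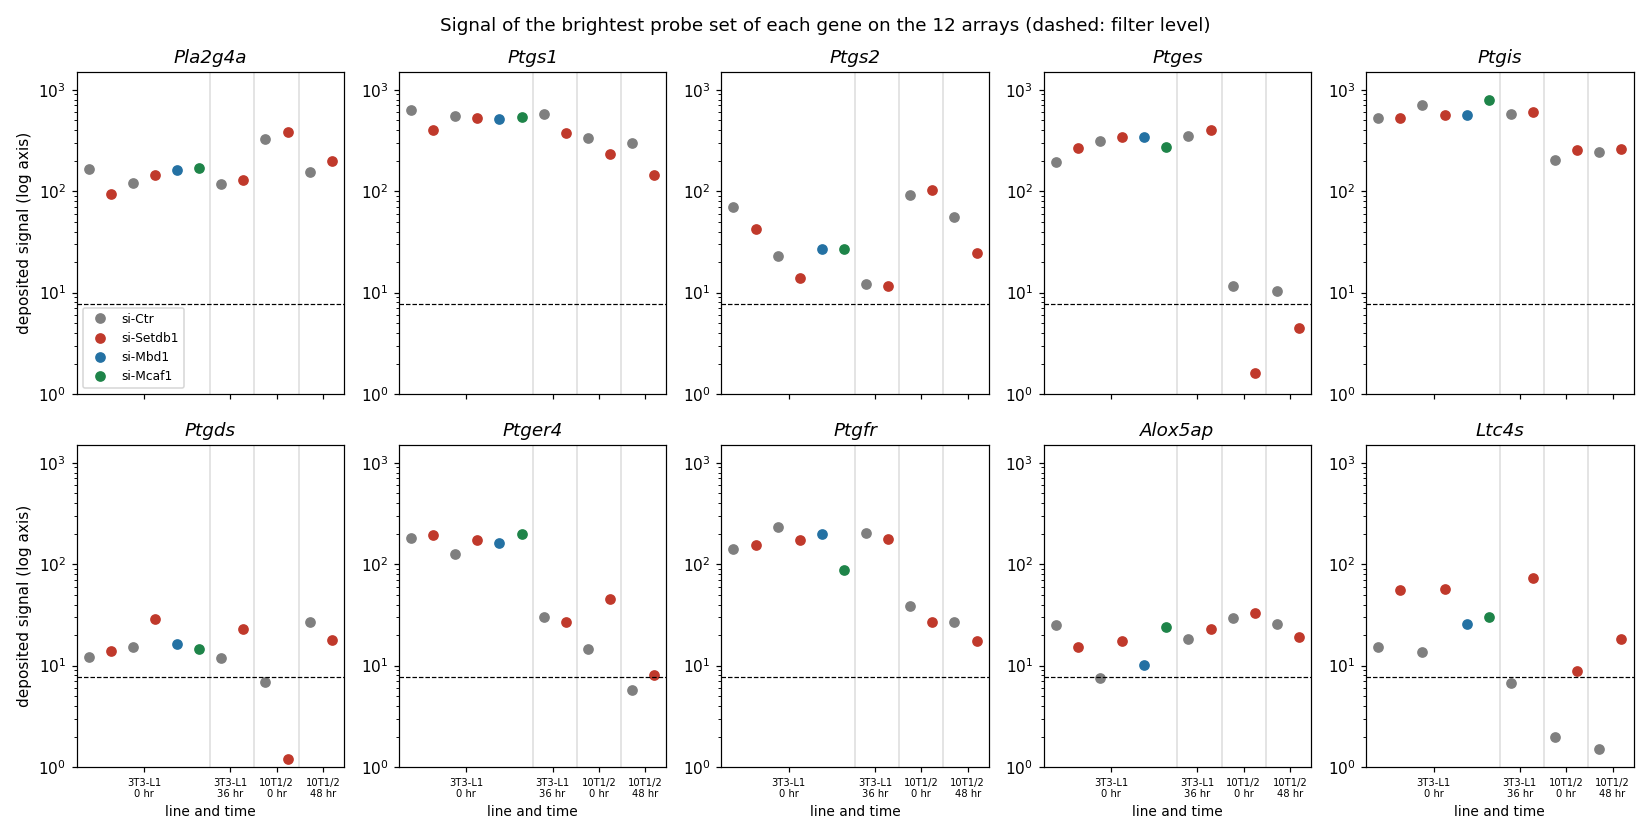
Signal of each of the 10 genes on the 12 arrays (log axis, deposited linear intensity, brightest probe set). Colour gives the siRNA, and position along the horizontal axis gives line and time. The 4 arrays of 10T1/2 are at 1.6 to 11.7 for Ptges, and the 8 arrays of 3T3-L1 are at 194.2 to 396.9.

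Among the enzymes that supply prostaglandin H2, Pla2g4a (cytosolic phospholipase A2) was the one gene that passed the test as higher in 10T1/2. Its signal at 0 hr was 325.6 and 385.8 in 10T1/2 and 94.4 to 164.5 on the 4 arrays of 3T3-L1. The 10T1/2 arrays were higher by 1.49 ± 0.26 on the log2 scale (SE), 2.80-fold, with a limma adjusted p of 0.0180. Ptgs1 (cyclooxygenase 1, the form most cells make constantly) was 230.0 and 331.7 in 10T1/2 and 404.0 to 630.9 in 3T3-L1. It was lower in 10T1/2 by 1.92-fold, with a log2 difference of -0.94 ± 0.19 and a limma adjusted p of 0.0279. Ptgs2 (cyclooxygenase 2, the inducible form) was 90.8 and 102.1 in 10T1/2. In 3T3-L1 it was 70.2 and 42.4 in experiment A and 22.9 and 13.8 in experiment B, so the 2 experiments lay far apart. Its difference between lines, 1.82 ± 0.78 on the log2 scale, did not pass (limma adjusted p = 0.167).

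Ptges, the inducible synthase of prostaglandin E2, had the largest difference between the lines among the 10 genes. Its signal at 0 hr in 10T1/2 was 11.7 with control siRNA and 1.6 on the array labelled si-Setdb1, a mean of 6.65 ± 7.14 (SD, n = 2). In 3T3-L1 it was 194.2, 265.9, 313.8 and 340.8, a mean of 278.7 ± 64.3 (SD, n = 4). These SDs take in the difference between siRNAs, and in 3T3-L1 also that between experiments. Ptges was lower in 10T1/2 by a log2 difference of -5.46 ± 0.63, with a limma adjusted p of 0.00611. One of its 10T1/2 signals was far below the filter level, and the difference was -4.10 without the array labelled si-Setdb1 and -6.83 without its control, and -3.65 with a pseudocount of 16. Both other Ptges probe sets passed as well, with log2 differences of -4.40 and -3.96. After dexamethasone Ptges was 10.3 and 4.5 in 10T1/2 and 353.5 and 396.9 in 3T3-L1, so the lines did not overlap at that time either. Ptgis (prostacyclin synthase) was 200.9 and 254.4 in 10T1/2 and 531.9 to 712.2 in 3T3-L1, lower by 2.62-fold (log2 difference -1.39 ± 0.23, limma adjusted p = 0.0168). Ptgds (lipocalin-type prostaglandin D synthase) was 6.9 and 1.2 in 10T1/2 and 12.1 to 29.0 in 3T3-L1. Its log2 difference of -1.88 had a limma adjusted p of 0.0834, and its second probe set overlapped between the lines.

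Both prostaglandin receptors were lower in 10T1/2. Ptger4, the EP4 receptor for prostaglandin E2, had signals of 14.5 and 45.4 there and 125.3 to 194.1 in 3T3-L1. The log2 difference was -2.47 ± 0.34, 5.54-fold, with a limma adjusted p of 0.00968, and its second probe set passed too. Ptgfr, the receptor for prostaglandin F2 alpha, was 39.1 and 26.7 in 10T1/2 and 141.2 to 230.1 in 3T3-L1, lower by 4.73-fold (log2 difference -2.24 ± 0.24, limma adjusted p = 0.00504). All 5 Ptgfr probe sets were lower in 10T1/2, and 3 of them passed when probe sets were tested singly. One of the others was 66.6 and 42.9 in experiment B but 5.7 and 4.6 in experiment A, and it overlapped between the lines.

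In the leukotriene branch, Ltc4s (leukotriene C4 synthase) was lower in 10T1/2 and Alox5ap (the 5-lipoxygenase activating protein) did not pass. Ltc4s was 2.0 and 8.8 in 10T1/2 and 13.5 to 56.6 in 3T3-L1, a log2 difference of -2.19 ± 0.22, or 4.58-fold, with a limma adjusted p of 0.00401. Alox5ap was 29.2 and 33.1 in 10T1/2 and 7.5 to 25.2 in 3T3-L1, and its log2 difference of 1.26 had a limma adjusted p of 0.172. Without both arrays of experiment B, 2 of the 10 genes passed, Ltc4s (limma adjusted p = 0.0237) and Ptgfr (0.0410). Ptges then had a log2 difference of -5.19 with a limma adjusted p of 0.0620. Fewer of all genes passed in that fit too, as counted in the last section. The fit without the 10T1/2 array labelled si-Setdb1 leaves a lone array of that line. Fewer of the 10 genes and of all genes passed there as well. With array medians subtracted, which moved the median of all genes to 0.28, Ptgs1 and Ptgis did not pass and Ptgds did. The line and the experiment cannot be told apart for 10T1/2, and fewer cells of a kind cannot be told apart from less RNA per cell in these bulk samples.

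**Figure D2:**
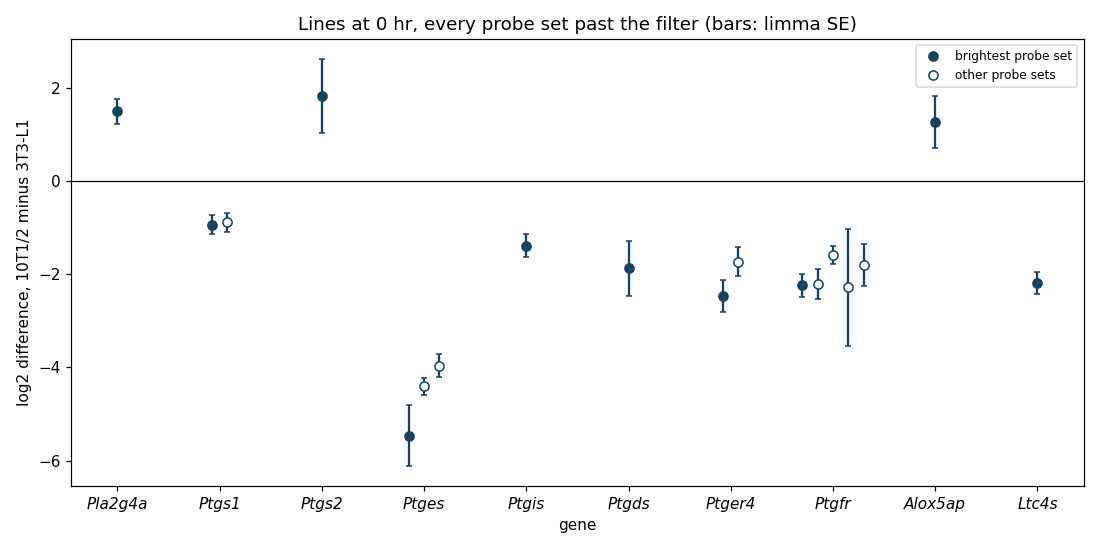
Log2 difference of 10T1/2 minus 3T3-L1 at 0 hr for each tested probe set of the 10 genes, with bars of 1 SE. The 3 Ptges probe sets lie between -5.46 and -3.96, and the Pla2g4a probe set lies at 1.49.

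On the arrays labelled si-Setdb1, 1 of the 10 genes rose and none fell, when each of the 5 arrays was paired with the control array that matches it in line, time and experiment. Among all genes tested, 1.1% passed, with 0.443% higher and 0.661% lower. Of those calls 40.1% were higher, and 24.9% were when array medians were subtracted in place of quantile normalisation. The gene was Ltc4s, which makes leukotriene C4, the parent of the cysteinyl leukotrienes. In 3T3-L1 at 0 hr its signal went from 15.2 to 55.6 in experiment A and from 13.5 to 56.6 in experiment B. After 36 hr of dexamethasone it was 6.8 with control siRNA and 72.6 on the array labelled si-Setdb1. In 10T1/2 it went from 2.0 to 8.8 at 0 hr and from 1.5 to 18.3 at 48 hr. Within each line every array labelled si-Setdb1 was above every control array, while the 10T1/2 array with 8.8 lay below 2 of the 3T3-L1 controls. The mean was 7.80 ± 6.36 with control siRNA and 42.4 ± 27.4 on the labelled arrays (SD, n = 5 each). Both SDs take in the differences between lines, times and experiments. Ltc4s was higher in 5 of 5 pairs, by 2.39 ± 0.27 on the log2 scale (SE), or 5.23-fold, with a limma adjusted p of 0.0380.

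The 5 Ltc4s differences on the log2 scale were 1.74 and 3.09 in 10T1/2 at 0 and 48 hr, 1.75 and 2.13 in 3T3-L1 at 0 hr, and 3.22 in 3T3-L1 at 36 hr. They were thus larger after dexamethasone in each line, by 1.28 in the interaction, which did not pass (limma adjusted p = 0.629). The controls after dexamethasone and both 10T1/2 controls were below the filter level, where small signals limit the precision. In 3T3-L1 at 0 hr alone, with 2 arrays in each group, Ltc4s was 14.4 ± 1.20 and 56.1 ± 0.707 (mean signal ± SD). The log2 difference of 1.94 ± 0.28 had a limma adjusted p of 0.532 there, and 0.263 with the experiment letter as a block. That smaller comparison called 0 of the 10 genes with limma and 0.0161% of all genes. At an unadjusted p under 0.05 it held 1 of the 10 genes and 671 of all genes.

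The Ltc4s call was lost when any 1 of the 5 pairs was left out, with limma adjusted p-values of 0.0717 to 0.127 and log2 differences of 2.18 to 2.55. In each of those 5 fits limma called no gene on the array. Summed adipocyte markers, of which 9 of 10 are on the array and 6 passed the filter, were higher along with Ltc4s in each of the 5 pairs. In 3T3-L1 their sum went from 2749.1 to 8442.7 in experiment A, from 3505.6 to 8362.7 in experiment B and from 4240.3 to 17048.3 after dexamethasone. In 10T1/2 it went from 491.7 to 1263.3 at 0 hr and from 2692.5 to 17969.9 at 48 hr. With control siRNA the sum was higher after dexamethasone than before it in both lines. Ltc4s on those control arrays went from 15.2 to 6.8 in 3T3-L1 and from 2.0 to 1.5 in 10T1/2. Adipoq, which encodes the fat cell hormone adiponectin, was 3.8 and 1068.7 in experiment A at 0 hr. The part of fat cell differentiation in the Ltc4s difference was not tested. The marker of mast cells and granulocytes that passed the filter was S100a8, at 0.8 to 236.5. The sum of their 11 markers was 36.4 to 81.6 on the 5 controls and 53.4 to 284.3 on the 5 labelled arrays. On the labelled arrays after dexamethasone, S100a8 made up 134.6 of 170.4 in 3T3-L1 and 236.5 of 284.3 in 10T1/2. The other markers, among them Kit, Cpa3 and Mcpt4, did not pass the filter. The 10 macrophage markers summed to 144.4 to 230.6 on the controls and 136.6 to 236.7 on the labelled arrays. Of them, Cd14 was at 46.8 to 101.9, Csf1r at 8.6 to 56.8 and Lyz2 at 6.7 to 66.1 over the 12 arrays. Mast cells and macrophages are known makers of leukotriene C4, and their part in the Ltc4s difference was not tested.

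**Figure D3:**
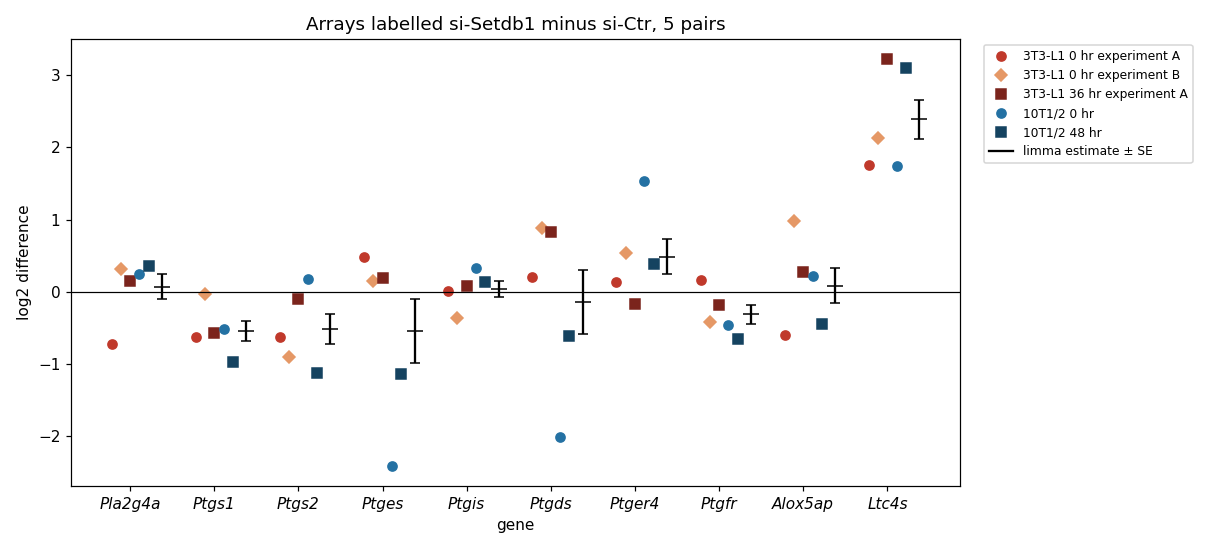
Log2 difference of each array labelled si-Setdb1 minus its control array for the 10 genes (brightest probe set), 1 point per pair. The 5 Ltc4s points lie between 1.74 and 3.22 and the 5 Ptgs1 points between -0.98 and -0.03.

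None of the other 9 genes passed in the 5 pairs. Higher in 5 of 5 pairs was 1 of the 10 genes (11% of all genes tested), and lower in 5 of 5 was 1, Ptgs1 (11.9% of all genes). Ptgs1 signals were 630.9 and 404.0 (control, then labelled si-Setdb1) in 3T3-L1 experiment A at 0 hr, 545.6 and 531.2 in experiment B, and 575.7 and 375.5 at 36 hr. In 10T1/2 they were 331.7 and 230.0 at 0 hr and 298.6 and 144.2 at 48 hr. The differences ran from -0.98 to -0.03 on the log2 scale, smallest in experiment B. Their mean was -0.54 ± 0.14 with a limma adjusted p of 0.103, and the second Ptgs1 probe set was also lower in 5 of 5 pairs, by 0.76 on average. Ptgs2 had a log2 difference of -0.52 ± 0.21 (limma adjusted p = 0.216) and was lower in 4 of 5 pairs, but its second probe set was higher in 3 of 5. Pla2g4a was at 0.07 (limma adjusted p = 0.845).

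Read from their brightest probe sets, the terminal synthases differed little or went opposite ways in the 2 lines. Ptges was higher in the 3 pairs of 3T3-L1, by 0.48, 0.15 and 0.19 on the log2 scale, and lower in both pairs of 10T1/2, by -2.41 and -1.15, where all its signals were 11.7 or less. Its other 2 probe sets were higher in 5 of 5 pairs, with mean log2 differences of 0.43 and 0.89. The probe sets of Ptges thus disagreed in 10T1/2. The brighter probe set of Ptgds was likewise higher in the 3 pairs of 3T3-L1 and lower in both pairs of 10T1/2. Its second probe set was lower in 4 of 5 pairs, among them 2 of 3T3-L1 (-0.58 and -1.91). In the brightest probe sets the difference between lines was -2.05 for Ptges (limma adjusted p = 0.364) and -1.95 for Ptgds (limma adjusted p = 0.456). For the other 2 Ptges probe sets it was 0.06 and 0.96. No gene on the array passed in that interaction (0% called by limma), with 2 of the 10 genes and 1038 of all genes at an unadjusted p under 0.05. Ptgis was at 0.04 over the 5 pairs (limma adjusted p = 0.872). The interaction with dexamethasone called no gene either (0% called by limma), with 1 of the 10 genes, Ltc4s, and 891 of all genes at an unadjusted p under 0.05.

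Of the receptors, Ptger4 was higher in 4 of 5 pairs, with a log2 difference of 0.48 ± 0.24 (limma adjusted p = 0.300). Its largest difference was in 10T1/2 at 0 hr, where the signal was 14.5 with control siRNA and 45.4 on the labelled array. Ptgfr was lower in 4 of 5 pairs at -0.31 (limma adjusted p = 0.232). Alox5ap went from 25.2 to 15.3 in experiment A and from 7.5 to 17.5 in experiment B, opposite directions in the same line and at the same time. Its mean log2 difference was 0.08 (limma adjusted p = 0.865).

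After dexamethasone, 1 of the 10 genes fell, the prostaglandin E2 receptor Ptger4, and none rose. Dexamethasone was given with differentiation medium and only at the later times, so drug, medium and time cannot be told apart. The comparison used 4 pairs, each of 1 line with 1 siRNA before and after dexamethasone, in which 0.766% of all genes passed, 0.5% higher and 0.266% lower. The Ptger4 signal went from 182.0 to 29.9 in 3T3-L1 with control siRNA and from 194.1 to 26.6 with the siRNA labelled si-Setdb1. In 10T1/2 it went from 14.5 to 5.8 and from 45.4 to 8.0. It was lower in every pair, and in each line both arrays after dexamethasone were below both arrays before it. The mean Ptger4 signal was 109.0 ± 92.3 before and 17.6 ± 12.4 after (SD, n = 4 each). Both SDs take in the differences between lines and siRNAs. The log2 difference was -2.21 ± 0.25 (SE), or 4.62-fold lower, with a limma adjusted p of 0.0462.

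The 4 Ptger4 differences on the log2 scale were -2.40 and -2.71 in 3T3-L1 and -1.29 and -2.43 in 10T1/2. Its second probe set was lower in 3 of 4 pairs, with a mean of -1.0, and was 5.6 or less on every array after dexamethasone. The exception was the 10T1/2 pair labelled si-Setdb1, at 0.35, beside -0.93 in the 10T1/2 control pair. The call was lost when any of 3 pairs was left out: the 3T3-L1 control pair (limma adjusted p = 0.190), the 3T3-L1 pair labelled si-Setdb1 (0.173) or the 10T1/2 pair labelled si-Setdb1 (0.185). It was also lost on the deposited scaling without quantile normalisation (limma adjusted p = 0.0520). The summed signals of 8 known glucocorticoid-induced genes, used as a check of the treatment, were 1614.2 to 3369.9 before and 6399.5 to 11751.8 after dexamethasone, and 6 of the 8 rose. The summed adipocyte markers given above were also higher after dexamethasone in each of the 4 pairs, and their part in the Ptger4 difference was not tested.

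**Figure D4:**
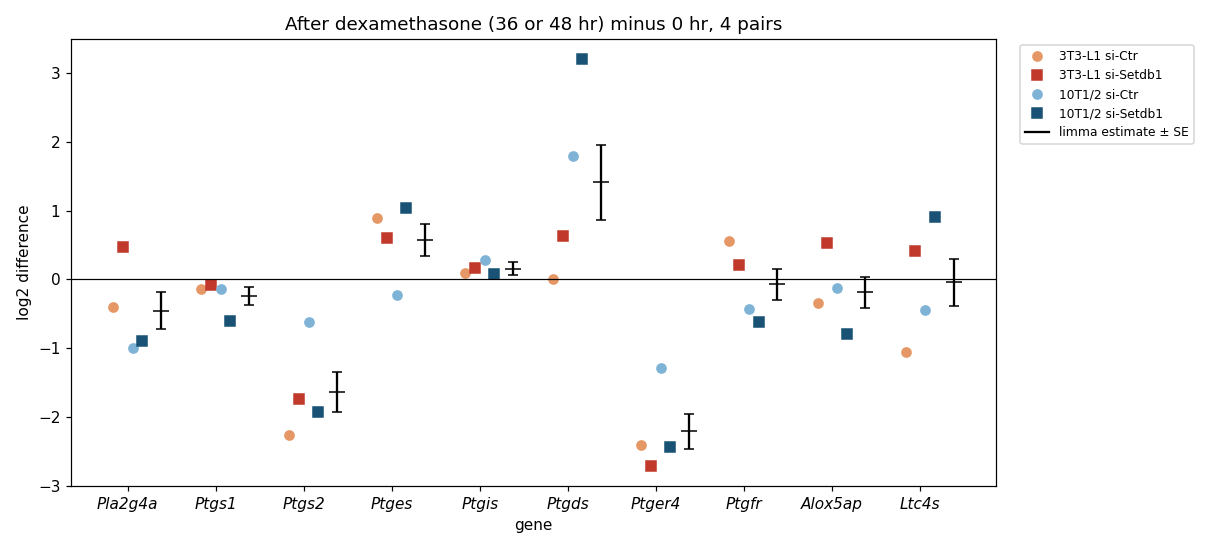
Log2 difference after dexamethasone minus before it for the 10 genes (brightest probe set), 1 point per pair of the same line and siRNA. The 4 Ptger4 points lie between -2.71 and -1.29 and the 4 Ptgs2 points between -2.26 and -0.61.

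Ptgs2 was lower in all 4 pairs as well, but did not pass. Its signal went from 70.2 to 12.3 and from 42.4 to 11.7 in 3T3-L1, and from 90.8 to 55.7 and from 102.1 to 24.8 in 10T1/2. Within each line the arrays before and after dexamethasone did not overlap. The log2 difference was -1.64 ± 0.29, with a limma adjusted p of 0.0858, and the second Ptgs2 probe set was lower in 4 of 4 pairs. In 3T3-L1 of experiment B, without dexamethasone, the brightest Ptgs2 probe set was 22.9 and 13.8. Its spread between experiments at 0 hr (log2 differences of -1.87 and -2.15, B minus A) was thus as large as its difference after dexamethasone. In the second probe set, with signals of only 0.3 to 16, B minus A was -0.36 and 0.18, beside a mean of -1.10 after dexamethasone. Lower in 4 of 4 pairs were 3 of the 10 genes, Ptger4, Ptgs2 and Ptgs1, beside 15.4% of all genes tested. Higher in 4 of 4 were 2, Ptgds and Ptgis, beside 16.3%, but Ptgds in the 3T3-L1 control pair was at 12.1 and 12, a difference of 0.0064 after normalisation. The median log2 difference was -0.13 over the 10 genes and -0.01 over all genes.

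Ptgs1 differed by -0.24 (limma adjusted p = 0.334) and Pla2g4a by -0.46 (limma adjusted p = 0.388). Pla2g4a went from 325.6 to 155.6 and from 385.8 to 198.4 in 10T1/2, and from 164.5 to 117.0 and from 94.4 to 129.5 in 3T3-L1. Among the synthases, Ptgds went from 6.9 to 27.2 and from 1.2 to 18.0 in 10T1/2 but from 12.1 to 12 and from 14.0 to 22.7 in 3T3-L1. Its log2 difference was 1.41 ± 0.54 (limma adjusted p = 0.234). Ptges was at 0.57 (limma adjusted p = 0.248), with its second probe set at -0.72, and Ptgis at 0.16 (limma adjusted p = 0.382). Ptgfr (-0.07, limma adjusted p = 0.887), Alox5ap (-0.18, limma adjusted p = 0.679) and Ltc4s (-0.04, limma adjusted p = 0.956) were close to 0 over the 4 pairs. Ltc4s was lower after dexamethasone in both control pairs and higher in both pairs labelled si-Setdb1. No gene on the array passed for a difference between the lines in the change after dexamethasone (0% called by limma). At an unadjusted p under 0.05 there were 3 of the 10 genes and 1234 of all genes. Those 3 were Pla2g4a at -0.98 (limma adjusted p = 0.488), Ptgds at 2.18 (limma adjusted p = 0.359) and Ptgfr at -0.90 (limma adjusted p = 0.337), 10T1/2 minus 3T3-L1. The time in dexamethasone differed between the lines too, so line and time cannot be told apart there.

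With the siRNAs to Mbd1 and Mcaf1, none of the 10 genes passed (0% of all genes called by limma in each comparison). At an unadjusted p under 0.05 there was 1 of the 10 genes and 668 of all genes for si-Mbd1, and 2 of the 10 and 899 of all genes for the array labelled si-Mcaf1. Each lone array was assumed to vary like the other 3T3-L1 arrays at 0 hr. Ltc4s was 25.8 with the Mbd1 siRNA and 29.8 on the array labelled si-Mcaf1, above the 13.5 and 15.2 of the 2 controls and below the 55.6 and 56.6 of the arrays labelled si-Setdb1. The log2 differences were 0.91 ± 0.23 (limma adjusted p = 0.917) and 0.93 ± 0.23 (limma adjusted p = 0.619). Summed adipocyte markers were 4383.7 and 3434.7 on these 2 arrays, beside 3505.6 on the control of experiment B. Ptgfr was 88.2 on the array labelled si-Mcaf1, below the 141.2 to 230.1 of the other 5 arrays of 3T3-L1 at 0 hr. Its log2 difference was -1.38 ± 0.28 (limma adjusted p = 0.612). All 5 Ptgfr probe sets were lower on that array than on the control of experiment B, by log2 differences of -1.52 to -0.69. Alox5ap was 24.1 on the array labelled si-Mcaf1 and 7.5 on its control, and 25.2 on the control of experiment A. Ptger4 was 197.7 and 125.3 on the array labelled si-Mcaf1 and its control.

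The rest of the pathway was read from a list of 61 genes, of which 32 passed the filter. On the arrays labelled si-Setdb1, 1 of the 32 rose and none fell, beside 0.443% and 0.661% of all genes tested. Of the 32, 28 were above 0 (50.2% of all genes tested were), and the median log2 difference was 0.26, beside 0.00 over all genes. The one that rose was Plaat3 (Pla2g16 in the deposited annotation), a phospholipase of fat tissue. Its signal went from 233.8 to 793.1 and from 135.4 to 392.1 in 3T3-L1 at 0 hr, experiments A and B, and from 388.7 to 1430.6 at 36 hr. In 10T1/2 it went from 182.9 to 697.4 at 0 hr and from 517.9 to 2935.4 at 48 hr. Plaat3 was higher in 5 of 5 pairs, by 1.89 ± 0.12 on the log2 scale, or 3.70-fold, with a limma adjusted p of 0.0171. Plaat3 was 142.7 with the Mbd1 siRNA and 95.7 on the array labelled si-Mcaf1. The next by p were Ptgir, the prostacyclin receptor (log2 difference 0.88, limma adjusted p = 0.0895), and the phospholipase Pla2g15 (0.59, limma adjusted p = 0.0999).

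**Figure D5:**
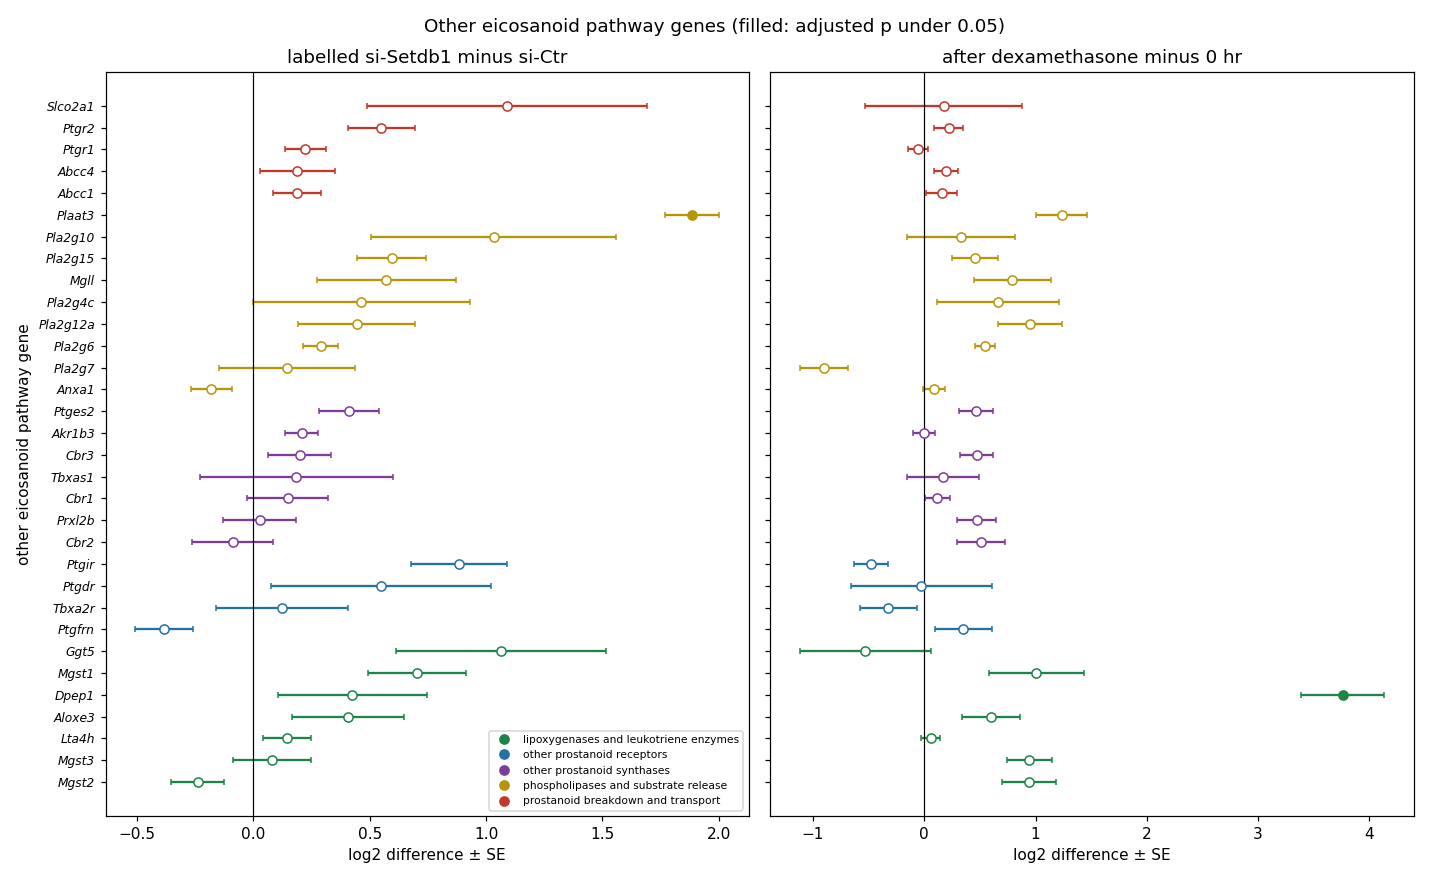
Log2 differences of the 32 other pathway genes past the filter in the 5-pair siRNA comparison and in the 4-pair dexamethasone comparison. Plaat3 passes in the first and Dpep1 in the second.

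After dexamethasone, 1 of the 32 rose and none fell, beside 0.5% and 0.266% of all genes tested. Of the 32, 25 were above 0 (48.7% of all genes were), with a median of 0.34. Dpep1, a dipeptidase that turns leukotriene D4 into leukotriene E4, went from 25.6 to 607.3 and from 51.8 to 464.7 in 3T3-L1, and from 15 to 473 and from 51.8 to 400.4 in 10T1/2. Dpep1 was higher in 4 of 4 pairs, by 3.76 ± 0.37 on the log2 scale, or 13.6-fold, with a limma adjusted p of 0.0373. Between the lines, 4 of the 32 passed as higher in 10T1/2 and 5 as lower, beside 9.13% and 8.56% of all genes tested. The log2 differences of those higher were 3.40 for Cbr2, 1.97 for Mgll, 1.73 for Ptgr1 and 1.01 for Ptgfrn, and of those lower -3.05 for Mgst1, -1.51 for Pla2g15, -1.45 for Ptgr2 and -0.82 for Akr1b3. The largest of the 9 was Pla2g7, the phospholipase that breaks down platelet-activating factor, lower in 10T1/2 by a log2 difference of -5.04 (limma adjusted p = 0.000970). Alox5, the 5-lipoxygenase on which the leukotriene branch depends, did not pass the filter, with signals of 0.8 to 19.2. None of the 6 leukotriene and lipoxin receptors on the list passed it. Lta4h, which makes leukotriene B4 from leukotriene A4, was at 519.9 to 775.3.

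The genes with the most similar pattern over the 12 arrays were found by Pearson correlation of the normalised log2 values. These values are descriptions: the 12 arrays share lines and experiments, and the 3 nearest genes were taken from all genes tested. For Ltc4s they were Amigo2 (r = 0.94), Gdf15 (0.94) and Mgme1 (0.93), for Ptger4 Ccdc102a (0.97), Ddah2 (0.97) and Cdh11 (0.96), and for Ptges Nrn1 (0.99), Pyroxd2 (0.98) and Eva1b (0.98). For Ptgs1 they were Scrn1 (0.97), Zmynd8 (0.97) and Triobp (0.96), and for Ptgs2 Stxbp4 (0.95), Zfhx3 (0.93) and Vezf1 (0.93). For Ptgis they were Agk (0.98), Svil (0.98) and Zfp991 (0.97), for Ptgfr St3gal1 (0.97), Zfp512b (0.96) and Cdc42bpg (0.96), and for Alox5ap Cd109 (0.96), Rbak (0.94) and Rrp15 (0.93). Pla2g4a was nearest to Kif20b (0.93), Mcm6 (0.92) and Acsl3 (0.92), and Ptgds to Adcyap1r1, Pidd1 and Pgm2 (0.88 each). None of the 10 genes was among the nearest 3 of another.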

How the data were processed

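The 12 Affymetrix arrays were hybridised with biotinylated cRNA made from total RNA, as the labels' protocols state. The authors deposited 1 linear intensity per probe set and array, and log2 ratios beside them, which were not used here. The values show a trimmed mean, leaving 2% off each end, of 100 on every array. For the software, the background correction and the genome build, a statement is not given in the sources used here.

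Of 45101 probe sets, 64 were controls and 38068 had 1 symbol. Only the latter were named, the symbol being updated through RefSeq where it matched. The brightest probe set on average over the 12 arrays stood for its gene. Because array medians spanned 0.66 on the log2 scale, above a limit of 0.5, log2(intensity + 0.8) was quantile normalised. The pseudocount is the 10th percentile of the intensities and understates the fold change of dim genes. Genes below the 40th percentile of the mean were not tested.

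All comparisons used limma 3.58.1 (R 4.3.3), with Benjamini-Hochberg adjustment over 12402 genes and a threshold of 0.05. The siRNA comparison had the pair (line, time, experiment letter) as a block, the dexamethasone comparison line and siRNA, and the comparison of lines the siRNA as a covariate. For the Mbd1 and Mcaf1 siRNAs the experiment was the block, which leaves 1 residual degree of freedom. The experiment letter, which the labels give, pairs the 2 replicates of 3T3-L1 at 0 hr. Over genes, the difference between experiments correlated between the control and the labelled si-Setdb1 arrays (r = 0.426). Alternatives were the deposited scaling, median scaling, a pseudocount of 16, other filters, means or single probe sets, a variance trend, the block, and leaving out pairs or arrays. All 10 genes, the pathway and marker lists and the motifs were chosen with earlier results of these data known. The text names every one of the 10, other pathway genes past the threshold or with the smallest p, and the 3 nearest genes of each of the 10. The number of arrays limits the precision of every value.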

Additional observations from a re-analysis of the deposited data

How the results depend on the processing

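Of 627 single values of the 10 genes under the alternatives, 552 kept their direction and their side of the threshold, 37 lost the threshold, 10 gained it and 28 changed direction. The causes were not tested unless stated. The smallest signals, such as Ltc4s in the 10T1/2 controls and Ptges in 10T1/2, limit how finely a difference can be read there. Where leaving out an array left 1 in a group, it was assumed to vary like the others. Testing every probe set singly was chosen after seeing the data.

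The replicate block, from experiment letters, gave 1 gene in place of 2 in the comparison of 2 arrays with 2, with 0 of the 10 genes either way. Without the replicate block the 5-pair comparison called 101 genes in place of 137, with Ltc4s at a limma adjusted p of 0.0333, and the dexamethasone comparison called 190 in place of 95, with 2 of the 10 genes, Ptger4 and Ptgs2 (limma adjusted p = 0.0494).

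In the 5-pair siRNA comparison 603 genes passed with a pseudocount of 16, 838 with a stricter filter and 871 with a variance trend, where 2 of the 10 genes passed (Ltc4s and Ptgs1). Only 2 genes passed with means of probe sets, 15 with single probe sets and 0 without a filter, and 0 of the 10 genes did in each. Leaving out pairs gave 0 genes and 0 of the 10. In the comparison of 2 arrays with 2, the counts were 1 on the deposited scaling, 41 with array medians subtracted (35 higher and 6 lower, beside 2 and 0), 5 with a pseudocount of 16, 0 without a filter, 1 with means, 4 with a trend, 1 with single probe sets and 0 to 1 without an array. The interaction of siRNA with line called 26 genes with a pseudocount of 16, 14 with a stricter filter and 19 with a trend.

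After dexamethasone 360 genes passed with a pseudocount of 16 and 576 with a trend, with 2 of the 10 in each, and 459 with a stricter filter, which leaves out Ptger4 and had 0 of the 10. Without a filter there were 0 genes and 0 of the 10, with means 19 and 0, with single probe sets 59 and 0, and without a pair 1, 4, 13 or 12 and 0 to 1. The deposited scaling had 0 of the 10. The interaction of dexamethasone with line called 6 genes with a pseudocount of 16, 74 with a stricter filter and 83 with a trend. The comparison of lines called 838 genes and 4 of the 10 without a filter, 855 and 2 without experiment B, and 451 to 1674 and 2 to 7 without an array (451 and 502 without either 10T1/2 array, 1221 and 1414 without either of experiment B). For si-Mbd1, 37 genes passed with a stricter filter and 102 with a trend. For the array labelled si-Mcaf1, 48 passed with a pseudocount of 16, 226 with a stricter filter and 349 with a trend, and Ptgfr, 1 of the 10, passed in the last 2.

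On the log2 scale, the values that changed direction in the 5 pairs were Pla2g4a (-0.011) and Ptgis (-0.014) with array medians subtracted, Ptgds (0.034) with a pseudocount of 16, Ptgs2 (0.11) and Ptges (0.26) with means, Ptgis (-0.036) and Ptgds (0.32) without 10T1/2 at 0 hr, Pla2g4a (-0.00057) without 10T1/2 at 48 hr, and Alox5ap (-0.14) without experiment B. In the comparison of 2 with 2 they were Ptgs2 (0.11) with means, and, without 1 array, Pla2g4a (0.064 and 0.057), Ptgs2 (0.16 and 0.30), Ptges (-0.045), Ptgis (0.095), Ptgfr (0.21) and Alox5ap (-0.81 and -0.021). After dexamethasone they were Ltc4s (0.0037) on the deposited scaling, Ptgfr (0.0050) and Ltc4s (0.063) with a pseudocount of 16, Ptgfr (0.037) with means, and, without 1 pair, Ltc4s (0.29 and 0.090), Ptgfr (0.049 and 0.11) and Alox5ap (0.017).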
